A study of Mus musculus with 6 samples.

Results

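The 36 genes described here encode proteins that detect, signal and repair DNA double-strand breaks. They were taken by gene symbol from a list of this pathway, and all 36 were found once in each file among 55536 annotated genes. RNA was sequenced from 6 subcutaneous melanomas of B16 cells, a mouse melanoma line of the C57BL/6 strain. The hosts were C57BL/6J mice, about 100000 cells were inoculated, and the tumors were collected on day 13. In 3 tumors the cells carried a vector control, and in the other 3 ATM had been knocked out. All 6 tumors share the cell line, the host strain and the collection day, and neither group is labelled with any drug or radiation. How ATM was disrupted, whether a single clone or a mixed population was inoculated, and how many mice bore the tumors are not stated in the labels. A p-value here thus measures only the spread among these 6 tumors, which may be partly technical, and genotype cannot be told apart from the cell population that carries it.

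ATM is the kinase that the MRN complex (Mre11a, Rad50 and Nbn) brings to a double-strand break, where it phosphorylates histone H2AX, the checkpoint kinase CHK2, 53BP1, BRCA1 and many other proteins. The break is then either joined end to end by the Ku proteins, DNA ligase IV and their partners, or resected and copied from the sister chromatid with BRCA1, BRCA2 and their partners. Most of this control acts on proteins already made, through phosphorylation and ubiquitin, while transcripts of several recombination and checkpoint genes are also known to follow the cell cycle. The comparison asks whether transcripts of this machinery differed between tumors of cells with and without ATM.

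None of the 36 genes differed between the groups past the threshold used, a Benjamini-Hochberg adjusted p below 0.05 in edgeR's quasi-likelihood test. All 36 had passed the filter on low counts, with 50 to 11555 counts per library, and 4.96% of the 15696 genes tested were called (347 higher and 431 lower in the ATM knockout tumors). At an unadjusted p below 0.05 the test marked 3 of the 36, Trp53bp1 as higher and Brca2 and Rad54l as lower, against 23.0% of all genes tested. DESeq2 called 1 of them, Trp53bp1, against 14.6% of all genes, and limma-voom called 0, against 4.38%. Each of these shares of the 36 lay below the share of all genes.

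The differences were small and their intervals narrow for most of the 36. Log2 fold changes, given throughout as ATM knockout minus vector control, ran from -0.36 for Brca2 to 0.34 for Xrcc3, with a median of -0.055 against -0.0058 for all genes tested. The median size of the difference was 0.12 on the log2 scale, against 0.18 among the 11949 tested genes within the range of mean levels that the 36 span. The 95% interval of the log2 fold change lay within plus or minus 1, a 2-fold change, for all 36. It lay within plus or minus 0.5, a 1.41-fold change, for 24, and within plus or minus 0.25 for 4. The plot of differences by role shows these intervals. For 6 of the 36 the 3 tumors of one group lay wholly to one side of the other group: Trp53bp1, Lig4 and Nhej1 were higher, and Brca2, Rad52 and Rad54l lower, in every ATM knockout tumor. Across all genes tested, 29.7% had groups that did not overlap, so the 6 of 36 were no more than the background.

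**Figure D1:**
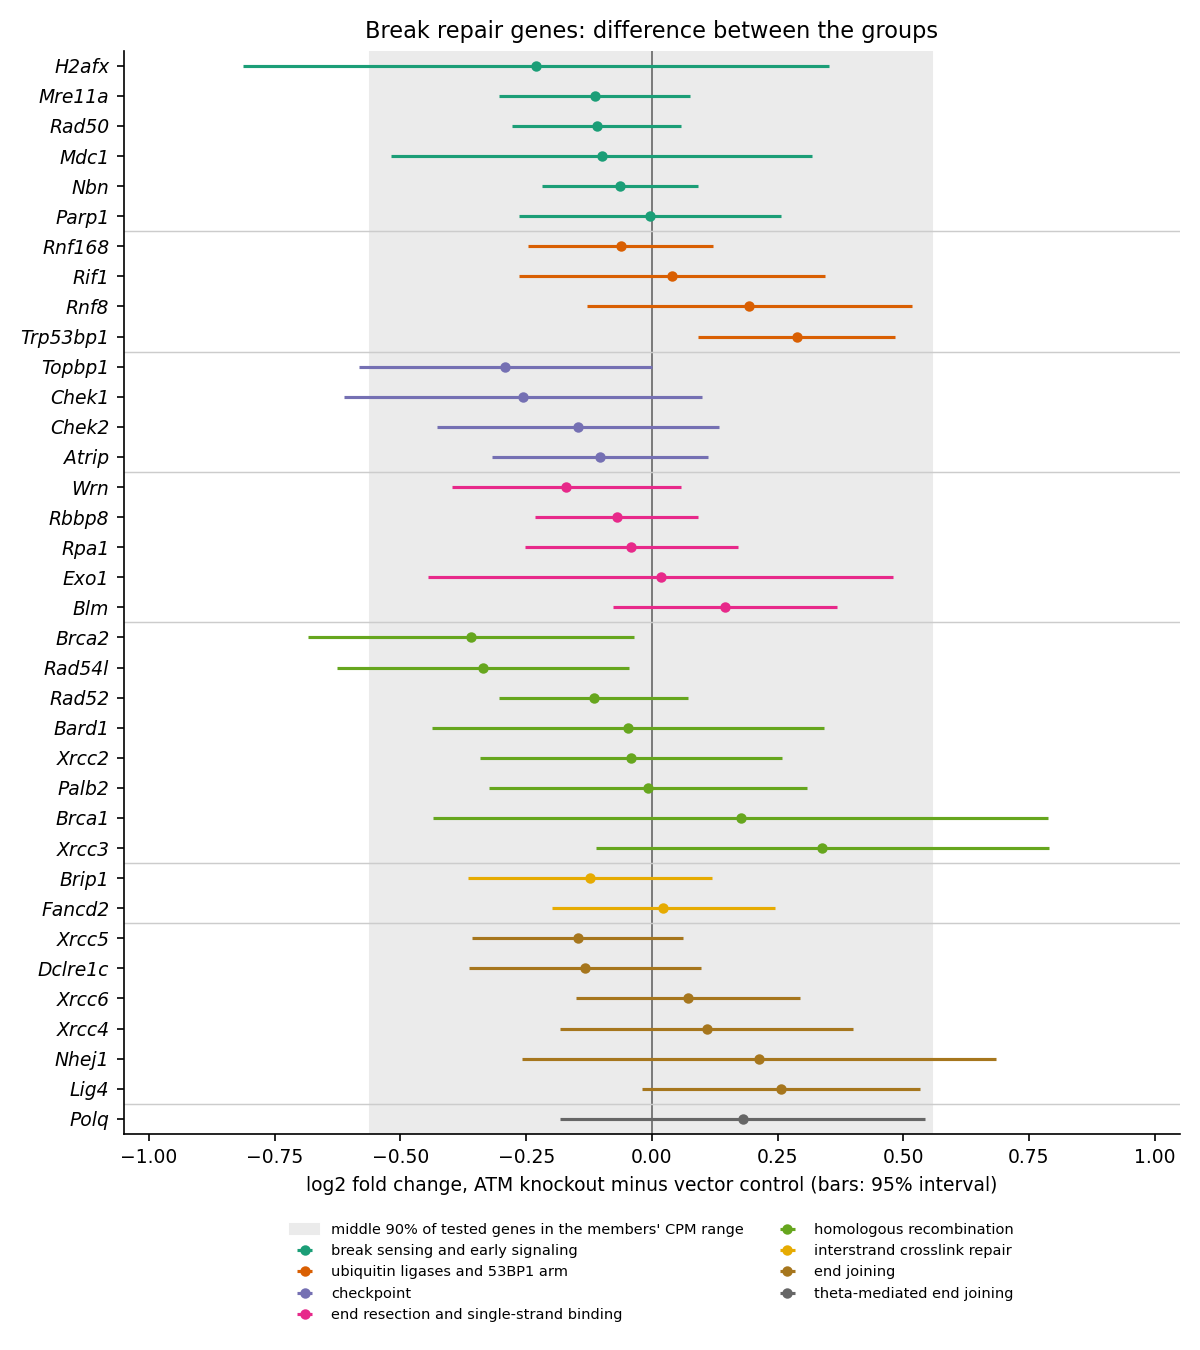
Log2 fold change of each of the 36 genes (horizontal axis, ATM knockout minus vector control, 3 tumors per group) with its 95% interval, ordered by role. The grey band holds the middle 90% of the 11949 tested genes in the same range of mean level (-0.56 to 0.56), and all 36 points lie inside it.

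The libraries held 22101124 to 29037715 counts on genes. Levels are CPM, counts scaled to the library sizes after TMM normalization, and means are given ± SD of 3 tumors. Atm itself stood at 111, 107 and 95.5 CPM in vector control tumors 1, 2 and 3, while the ATM knockout tumors held 97.2, 132 and 107 CPM in the same order. The groups overlapped (log2 fold change 0.10 ± 0.13 (SE), edgeR adjusted p = 0.707). Counts over the whole gene do not check a knockout that leaves the transcript in place. The melanocyte markers, Pmel among them, were present in every tumor (summed level 25001 to 35650 CPM). Of the 12, 1 was called, Dct, as lower in the ATM knockout tumors (log2 fold change -0.75, edgeR adjusted p = 0.0434). Its group means were 8521 CPM in the controls and 5079 CPM in the knockout tumors. The tested genes within 5 Mb of Dct on chromosome 14 had a median log2 fold change of -0.44 (33 genes). The median of the other tested genes on that chromosome was -0.35. Host tissue was uneven: vector control tumor 1 had the lowest summed leukocyte markers, Ptprc among them (389 CPM, against 651 to 975 in the others) and fibroblast markers, Col1a1 among them (312 CPM, against 1371 to 3072). Skeletal muscle markers, Acta1 among them, summed to 33.7, 80.8 and 8522 CPM in the controls and, with ATM knocked out, to 2961, 8319 and 727 CPM. Endothelial markers, Pecam1 among them, summed to between 190 and 335 CPM, and 7 of the 8 had a lower mean in the ATM knockout tumors (median log2 fold change -0.52), none called. Adipocyte markers summed to 40.6, 524 and 349 CPM in the controls against 39.9, 55.3 and 112 CPM, with all 8 lower in mean and none called, and erythroid markers to between 8.91 and 734 CPM. Of 10 keratinocyte markers, 5 were at 0 counts in every tumor, Krt5 among them, and the list summed to 3.41 to 4.64 CPM. In such bulk tissue, fewer cells of a type and less RNA per cell cannot be told apart. Vector control tumor 1 also had the lowest correlations of log2 CPM with the other libraries (0.931 to 0.961), so results that change without it are given both ways.

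The break sensors were all at or slightly below the control level, with no call among the 6. Their log2 fold changes ran from -0.23 (H2afx) to -0.0038 (Parp1), with a median of -0.10. In direction Parp1 and Mdc1 were not stable: Parp1 was at 0.044 when libraries were scaled by size alone, and Mdc1 at 0.037 without ATM knockout tumor 3. Rad50, the ATPase of the MRN complex, stood at 133, 137 and 122 CPM in the vector control tumors and at 122, 122 and 118 CPM in the ATM knockout tumors, a range of only 1.16-fold over all 6. Nbn, the subunit that binds ATM, was the steadiest of the 36, with 41.1 to 44.8 CPM in every tumor (1.09-fold). Mre11a, the nuclease, was at 57.4 to 60.9 CPM in the controls and 49.5 to 58.2 CPM in the knockout tumors. H2afx encodes the histone variant that ATM phosphorylates around a break. It was read at 33.0, 32.5 and 39.0 CPM in the controls and at 39.1, 30.0 and 20.1 CPM in the ATM knockout tumors, the widest range of the 36 (1.95-fold). The knockout tumors lay on both sides of the controls, tumor 1 just above all 3 and tumors 2 and 3 below them, with tumor 3 lowest. Mdc1, the scaffold that binds phosphorylated H2AX, was also lowest there (118 CPM, against 131 to 179 in the other 5). Parp1, which makes poly(ADP-ribose) at DNA ends, had group means of 177 ± 15.2 and 176 ± 20.5 CPM.

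Trp53bp1 came closest to the threshold. Its product, 53BP1, shields broken ends from resection and favors end joining. Vector control tumors 1, 2 and 3 had 88.7, 79.1 and 75.0 CPM, and their ATM knockout counterparts 95.9, 103 and 97.3 CPM. Every knockout tumor was above every control tumor, by a mean of 1.22-fold (log2 fold change 0.29 ± 0.082 (SE), 95% interval 0.092 to 0.48, edgeR adjusted p = 0.0994). DESeq2 gave the gene an adjusted p of 0.0212, library size alone 0.0465 (where 5.48% of all genes were called) and edgeR without vector control tumor 1 0.0399 (7.50% of all genes). Over 15 alternatives its edgeR, limma or DESeq2 adjusted p ran from 0.0212 to 0.233, and its log2 fold change from 0.25 to 0.36. Exons of Tubgcp4 on the other strand cover 15% of the exon bases of Trp53bp1, and Tubgcp4 had a log2 fold change of 0.061. The tested genes within 5 Mb of Trp53bp1 on chromosome 2 had a median log2 fold change of 0.23 (112 genes), of the same sign and nearly the same size.

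The other genes of the 53BP1 arm were not called. Rif1, the effector that 53BP1 recruits, ranged from 83.4 CPM in ATM knockout tumor 1 to 116 CPM in ATM knockout tumor 2, both in the same group. Rnf168, the ubiquitin ligase that marks H2A for 53BP1, was at 55.5 ± 3.39 CPM in the controls and 53.1 ± 3.06 CPM in the knockout tumors. Rnf8, the ligase that acts before it, had the lowest level per exon length of the 36 (0.770 CPM per kb), and its log2 fold change was 0.19 ± 0.14 (SE). A same-strand gene model, Gm28043, covers 13.2% of its exon bases, so reads there may not have been assigned to Rnf8.

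The 4 checkpoint genes all had lower means in the ATM knockout tumors, under every alternative run, and none was called. Topbp1, which activates the kinase ATR, had 191, 213 and 182 CPM in the vector control tumors and 156, 184 and 138 CPM in the ATM knockout tumors. Only ATM knockout tumor 2 reached into the control range (log2 fold change -0.29 ± 0.12 (SE), edgeR adjusted p = 0.218). Chek1, the checkpoint kinase downstream of ATR, stood at 38.2, 43.4 and 38.5 CPM and at 33.1, 40.2 and 27.2 CPM in the same order. Here too tumor 2 of the knockout group overlapped the controls, and tumor 3 was lowest (log2 fold change -0.26 ± 0.15 (SE), edgeR adjusted p = 0.371). Chek2, the kinase that ATM phosphorylates, differed less (-0.15), as did Atrip, the partner of ATR (-0.10). All 4 were at their lowest in ATM knockout tumor 3. Trex1 exons on the same strand cover 16% of the Atrip exon bases, so the Atrip counts are uncertain there.

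Among the genes of resection and single-strand binding, 2 of 5 were above 0 and 3 below, with log2 fold changes from -0.17 (Wrn) to 0.15 (Blm). Wrn and Blm encode RecQ helicases that unwind DNA at resected ends and recombination intermediates. Rbbp8, whose product CtIP starts resection with MRN, had group means of 46.1 ± 1.87 and 43.9 ± 1.56 CPM. Rpa1, the large subunit of the protein that coats single-stranded DNA, was with Brca1 the highest of the 36 per exon length (43.7 CPM per kb). Its group means were 247 ± 13.0 and 240 ± 21.3 CPM. Exo1, the long-range resection exonuclease, varied more between tumors than between groups, from 22.9 CPM in ATM knockout tumor 3 to 37.1 CPM in ATM knockout tumor 2.

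The homologous recombination genes held both the lowest and the highest fold change. Brca2 encodes a tumor suppressor that homologous recombination requires. The vector control tumors had 49.4, 67.5 and 54.0 CPM and the knockout tumors 44.9, 48.4 and 39.9 CPM. The groups did not overlap, but vector control tumor 1 lay less than 1 CPM above ATM knockout tumor 2 (log2 fold change -0.36 ± 0.14 (SE), edgeR adjusted p = 0.178). Without vector control tumor 2 the log2 fold change was -0.19. The tested genes within 5 Mb of Brca2 had a median log2 fold change of -0.18 (42 genes). Rad54l encodes RAD54, the motor protein that drives strand exchange. Its level was 51.1, 49.9 and 48.3 CPM in the controls and 41.4, 44.4 and 32.5 CPM in the knockout tumors. The controls lay close together and every knockout tumor was below them, tumor 3 most (log2 fold change -0.34 ± 0.12 (SE), edgeR adjusted p = 0.166). Without ATM knockout tumor 3 the log2 fold change was -0.21. Exons of Lrrc41 on the other strand cover 15.4% of the Rad54l exon bases, and Lrrc41 had a log2 fold change of -0.0056. Around Rad54l the 5 Mb median was 0.10 (86 genes).

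Xrcc3, which takes part in recombination, stood at 11.3, 13.4 and 11.0 CPM in the controls and 17.1, 16.7 and 11.3 CPM in the knockout tumors. Knockout tumors 1 and 2 were above every control, and tumor 3 was among them. The log2 fold change of 0.34 ± 0.19 (SE) was not called (edgeR adjusted p = 0.347), nor was that of 0.51 without ATM knockout tumor 3 (edgeR adjusted p = 0.112; range over 15 alternatives 0.112 to 0.692). Xrcc2, also a recombination gene, was at -0.041 ± 0.12 (SE). Rad52, an annealing protein, was at 25.1 to 26.3 CPM in the controls and 22.7 to 25.0 CPM in the knockout tumors. Palb2, which links BRCA1 to BRCA2, was the most alike in mean of the group, at 10.7 ± 0.566 and 10.6 ± 1.22 CPM. Bard1, the obligate partner of BRCA1, had a log2 fold change of -0.048 ± 0.16 (SE).

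**Figure D2:**
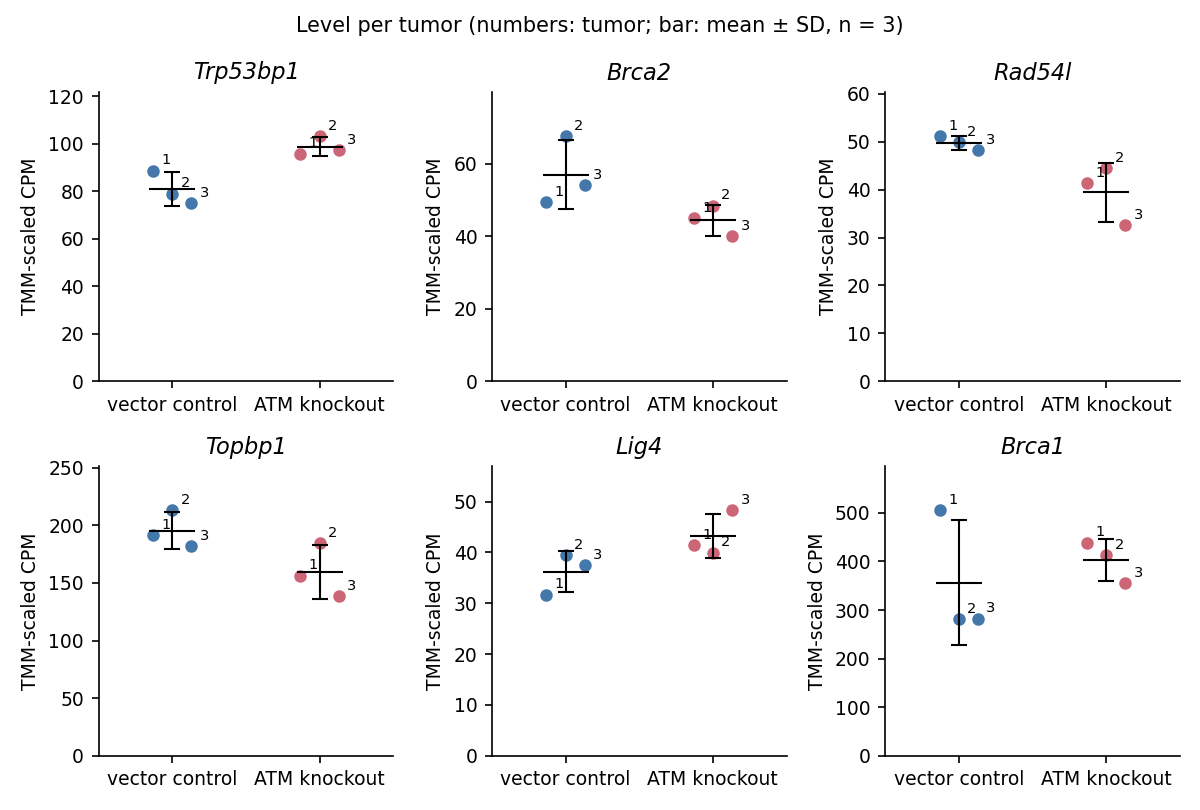
TMM-scaled CPM (vertical axes from 0) of 6 of the genes in each tumor, numbered 1 to 3 within its group, with mean ± SD (n = 3). Trp53bp1, Brca2, Rad54l and Lig4 show groups that do not overlap, Topbp1 shows ATM knockout tumor 2 within the control range, and Brca1 shows vector control tumor 1 at 505 CPM above all others.

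Brca1 had the widest standard error of the 36, and vector control tumor 1 stood apart from the other controls. Its product forms a ubiquitin ligase with BARD1 and promotes resection. Vector control tumors 1, 2 and 3 had 505, 281 and 282 CPM, and the knockout tumors 439, 414 and 355 CPM. The knockout tumors lay between the first control and the other two, and the log2 fold change was 0.18 ± 0.25 (SE, 95% interval -0.43 to 0.79, edgeR adjusted p = 0.751). Without vector control tumor 1 it was 0.52 and passed the threshold (edgeR adjusted p = 0.0393). That fit called 2 of the 36, Brca1 and Trp53bp1, against 7.50% of the 16116 genes it tested. Over 15 alternatives the adjusted p of Brca1 ran from 0.0393 to 0.941, and that fit alone was below 0.05.

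The high Brca1 level in vector control tumor 1 was compared, after its values were seen, with its partners and its neighbors. Brca1 there was 1.79 times the mean of vector control tumors 2 and 3. Bard1 was 0.849 times and Palb2 0.916 times theirs. The 25 other genes within 500 kb with a mean of at least 10 CPM had a median ratio of 1.09, from 0.724 (Atp6v0a1) to 1.43 (Rundc1), so none matched Brca1. Vector control tumor 1 was also the tumor with the highest summed melanocyte markers (35650 CPM, against 25001 to 27810 in the other controls and 25019 to 25835 in the knockout tumors). These sums include Dct, which was called lower in the knockout tumors. Of those 12 markers, 8 were highest in vector control tumor 1 and none was at 0. Of the 8 fibroblast markers 7, and of the 15 leukocyte markers tested 12, were lowest there. Their part in the Brca1 level was not tested.

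The crosslink repair genes differed little. Fancd2, the protein that the Fanconi ubiquitin ligase modifies at stalled forks, was at 101 ± 4.83 and 102 ± 10.4 CPM. Brip1, the helicase partner of BRCA1, was at 55.1 ± 1.41 and 50.6 ± 6.35 CPM. Its lowest tumor was again ATM knockout tumor 3, with 43.5 CPM against 52.4 to 56.7 CPM in the other 5.

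Of the 6 end joining genes, 4 were above 0 and 2 below under every alternative, and none was called. Lig4, the ligase that seals the ends, stood at 31.7, 39.4 and 37.5 CPM in the vector control tumors and 41.5, 40.0 and 48.3 CPM in the ATM knockout tumors. The groups did not overlap, but vector control tumor 2 and ATM knockout tumor 2 were less than 1 CPM apart (log2 fold change 0.26 ± 0.12 (SE), edgeR adjusted p = 0.248). Xrcc4, the scaffold of the ligase, had a log2 fold change of 0.11 ± 0.12 (SE). Nhej1, whose product XLF bridges the ends, was the lowest of the 36 in counts, at 2.19 to 2.33 CPM in the controls and 2.39 to 2.91 CPM in the knockout tumors. Of the Ku subunits, which bind the ends first, Xrcc6 (Ku70) was at 0.073 ± 0.093 (SE, edgeR adjusted p = 0.715) and Xrcc5 (Ku80) at -0.15 ± 0.087 (SE, edgeR adjusted p = 0.380). Dclre1c, the nuclease Artemis that opens hairpin ends, was at -0.13 ± 0.096 (SE). Polq, the polymerase of theta-mediated joining, had 27.0, 30.9 and 27.7 CPM in the controls and 32.6, 38.5 and 25.9 CPM in the knockout tumors. Its highest and lowest tumors were both ATM knockout tumors.

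The largest shared pattern was between tumors of one group. ATM knockout tumor 3 held the lowest value for 20 of the 36 genes, and for 2508 of the 15696 genes tested. Vector control tumor 2 held the highest value for 14 (38.9%) and ATM knockout tumor 2 for 9 (25%). Across all genes tested these shares were 17.1% and 14.5%. Of the 99 further break repair genes described below, 37 were lowest in ATM knockout tumor 3 (37.4%). Of the same 99, 33 were highest in ATM knockout tumor 2 (33.3%) and 23 in vector control tumor 2 (23.2%). The mean deviation of the 36 from their 6-tumor mean was 0.0028, 0.080 and -0.035 on the log2 scale in the 3 controls, in order, and 0.0099, 0.089 and -0.15 with ATM knocked out. Without ATM knockout tumor 3 the median log2 fold change of the 36 was 0.037, and without vector control tumor 2 it was 0.034, against -0.055 with all tumors. The low values in tumor 3 covered 5 of 6 sensors, 4 of 4 checkpoint genes, 5 of 8 recombination genes, both crosslink genes, Polq, 2 of 5 resection genes and 1 of 4 genes of the 53BP1 arm, and 0 of 6 end joining genes. The mean deviation there was 0.061 for end joining and -0.0010 for the 53BP1 arm, and between -0.30 and -0.11 for the other roles. The heat map of deviations shows these values gene by gene. With 6 genes, a count of 0 does not set end joining apart from all genes tested (2508 of 15696). The 99 further genes include 14 accessory genes of end joining. Of these 14, 5 were lowest in ATM knockout tumor 3, and their mean deviation there was -0.059.

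**Figure D3:**
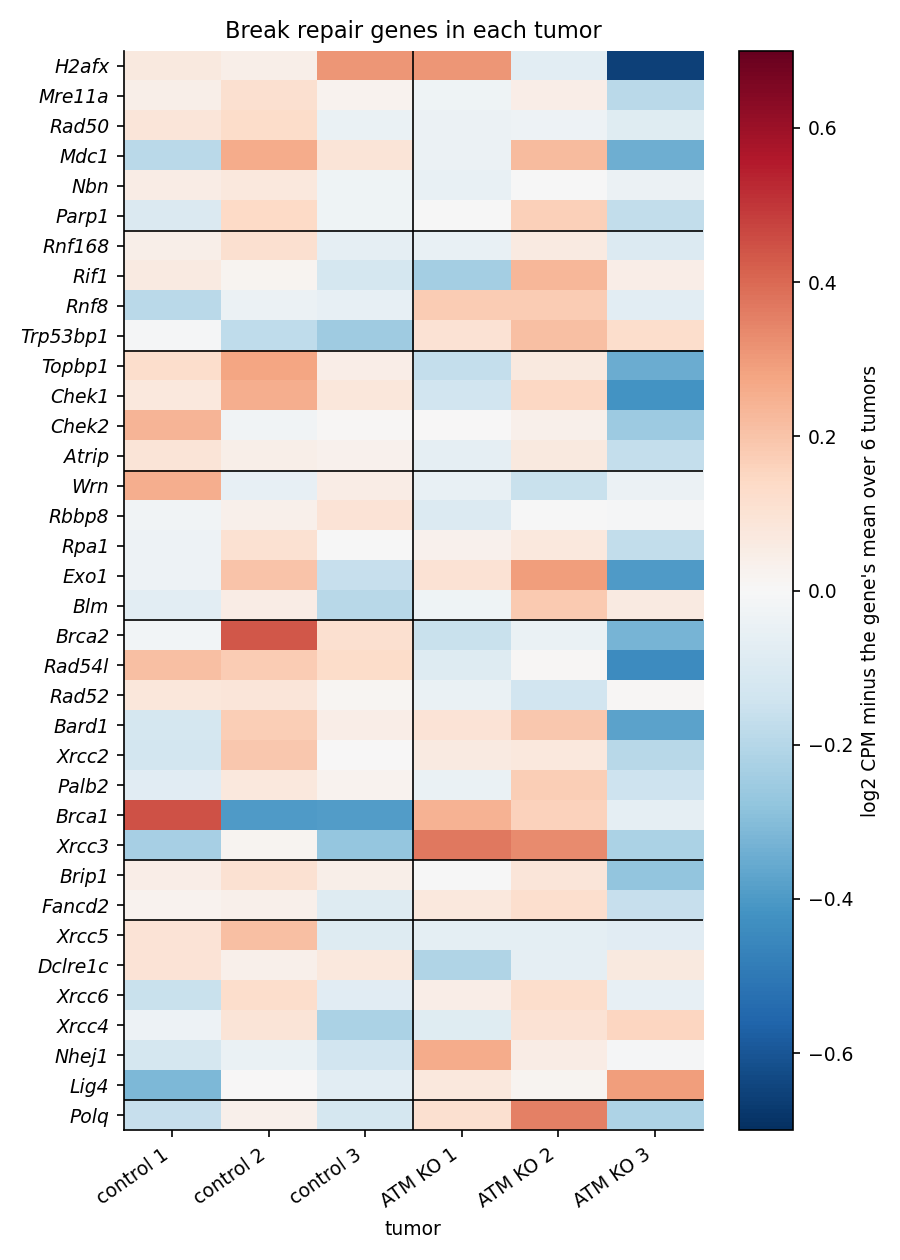
Deviation of each of the 36 genes (rows, ordered by role) from its mean over the 6 tumors, in log2 CPM, with the vector control tumors in the left 3 columns and the ATM knockout tumors in the right 3. ATM knockout tumor 3 is lowest for 20 genes. None of the 6 end joining genes is among them, but 6 genes are too few to set end joining apart from all genes tested.

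A list of 36 proliferation genes (replication, mitosis and cyclin genes that share no member with the 36) moved with this pattern. Of them, 28 were lowest in ATM knockout tumor 3, and their mean deviations were -0.075, 0.097 and -0.016 in the vector control tumors and 0.076, 0.15 and -0.23 in the ATM knockout tumors. Their summed level was 4429, 4997 and 4529 CPM in the controls and 4507, 4806 and 3776 CPM in the knockout tumors, with none at 0. Between the groups edgeR called 0 of these 36, against 4.96% of all genes tested, and limma-voom 0, against 4.38%. DESeq2 called 2 higher and 1 lower, against 14.6% of all genes. With library size alone edgeR called 1 higher, against 5.48%. It also called 1 higher with a filter at 1 CPM, where the share of all genes is not given here. At an unadjusted p below 0.05 edgeR marked 4 on each side of 0, against 23.0% of all genes. The median log2 fold change of these proliferation genes was 0.0035. The smallest p-values belonged to Aurka, a mitotic kinase (log2 fold change 0.56, edgeR adjusted p = 0.0541), Ccne1, cyclin E1 (0.43), and Mcm5, a subunit of the replicative helicase (-0.45). These are the 3 that DESeq2 called, with adjusted p of 0.00194, 0.0146 and 0.0323, against ranges over 15 alternatives of 0.00194 to 0.206, 0.0146 to 0.251 and 0.0323 to 0.379. The part of proliferation in the low values of ATM knockout tumor 3 was not tested.

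**Figure D4:**
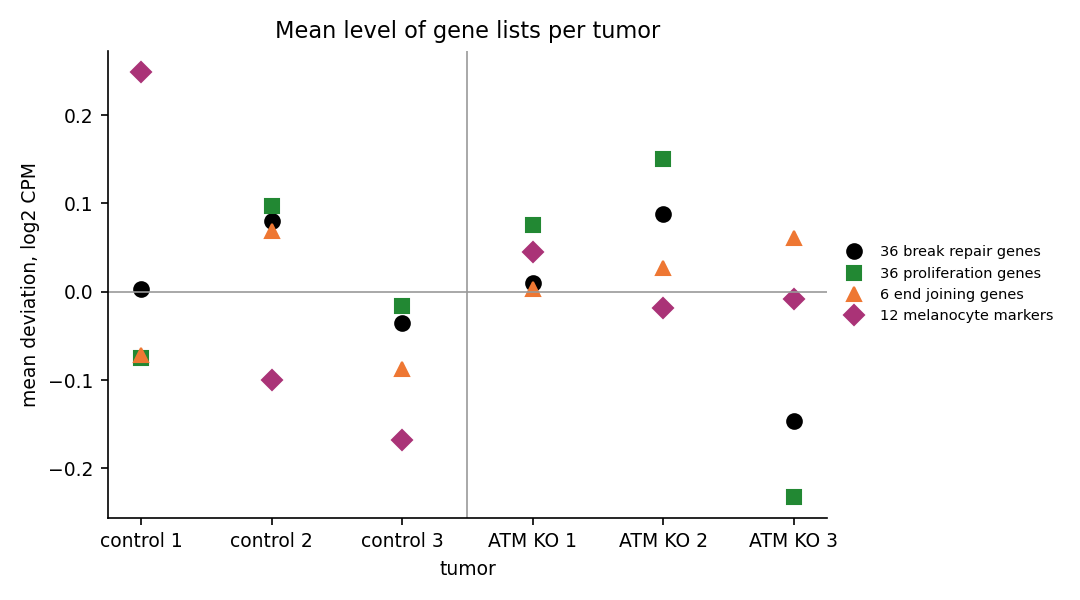
Mean deviation from the 6-tumor mean, in log2 CPM, of 4 gene lists in each tumor. The 36 break repair genes and the 36 proliferation genes are both lowest in ATM knockout tumor 3 (-0.15 and -0.23), where the 6 end joining genes are at 0.061, and the melanocyte markers are highest in vector control tumor 1 (0.25).

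E2F factors drive many replication and repair genes in the cell cycle, and the promoters were searched for letters that E2F proteins are known to bind. RefSeq promoters (GRCm38.p6, 250 bases before to 50 after the start) were given for 27 of the 36 genes. The letters TTTGGCGC, TTTCCCGC, TTTGCCGC or TTTCGCGC on either strand occurred in 6 of the 27 (22.2%), against 2.27% of 32851 promoters and 3.69% of the 14314 promoters of tested genes, a second background chosen after the first share was seen. Of the 6, 5 were lowest in ATM knockout tumor 3 (Bard1, Chek2, Brca2, Topbp1 and Mdc1, not Xrcc6). Of the 21 genes whose promoters lacked these letters, 10 were. The part of E2F in the low values of that tumor was not tested. CCAAT occurred in 55.6% of the 27, in 37.4% of all promoters and in 37.5% of those of tested genes. The cell cycle element TTTGAA or TTTAAA occurred in 29.6%, 27.6% and 20.1% in the same order. Shares of the 27 count genes with a match in any of their promoters (29 in all), while both backgrounds count single promoters. These are matches of letters and not bound sites. The windows around the match, up to 20 bases on either side and without annotated exon bases, are shown for the 5 genes other than Xrcc6. The match of Xrcc6 lay in an annotated exon, so it has no window. Each reads 5′ to 3′ along the strand of its gene, and capitals mark the match. Bard1 lies on the minus strand (chr1:71103154-71103201, match beginning 209 bases before the start), and the others on the plus strand: Chek2 (chr5:110839811-110839858, 152 bases before), Brca2 (chr5:150522433-150522480, 168 before), Topbp1 (chr9:103305178-103305214, 129 before) and Mdc1 (chr17:35841462-35841497, 16 before).
Bard1: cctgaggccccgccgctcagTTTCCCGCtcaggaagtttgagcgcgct
Chek2: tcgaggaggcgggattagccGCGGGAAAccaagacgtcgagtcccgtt
Brca2: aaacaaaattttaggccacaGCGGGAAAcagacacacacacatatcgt
Topbp1: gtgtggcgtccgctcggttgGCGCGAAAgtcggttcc
Mdc1: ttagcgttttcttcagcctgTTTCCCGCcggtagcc

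Bard1 and Mdc1 carry the same 8 letters, and Chek2 and Brca2 carry their reverse complement, so 4 of the 5 hold 1 motif, while Topbp1 holds another of the 4 searched. Their log2 fold changes between the groups were all below 0 but differed in size, from -0.36 for Brca2 to -0.048 for Bard1. Those of Mdc1 and Bard1 changed sign under at least 1 alternative. Xrcc6, whose match lay in an annotated exon, was at 0.073.

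The genes were also set beside their chromosomes, since the median difference between the groups was not 0 on each. All 5 of the 36 on chromosome 9, which also carries Atm and Atr, were below 0 (Mre11a, H2afx, Chek1, Topbp1 and Atrip). With any 1 of the 5 left out, the remaining 891 tested genes on it had a median log2 fold change of -0.098. Lig4 went against its chromosome, at 0.26 where the median on chromosome 8 was -0.26, while Wrn on the same chromosome was at -0.17. The tested genes within 5 Mb of Lig4 had a median nearer 0, of -0.046 (45 genes). Around Wrn the 5 Mb median was -0.13 (29 genes). Of the 36, 21 had the sign of the median of tested genes within 5 Mb. The same share over all genes tested was not computed, so this count has no background beside it. The part of the chromosome in these values was not tested.

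Of 102 further genes of break repair that were listed by function, 100 were found and 99 tested. Of these 99, 2 were called higher and 2 lower in the ATM knockout tumors, against the same 4.96% of all genes. At an unadjusted p below 0.05 there were 11 higher and 7 lower, against 23.0%. Smc1a encodes a cohesin subunit that ATM phosphorylates. It rose from 127, 146 and 141 CPM in the vector control tumors to 214, 221 and 196 CPM in the ATM knockout tumors (log2 fold change 0.60 ± 0.083 (SE), edgeR adjusted p = 0.0229). Its cohesin partner Smc3 fell, from 238, 244 and 212 CPM to 166, 180.0 and 179.7 CPM (log2 fold change -0.40 ± 0.081 (SE), edgeR adjusted p = 0.0457). The groups did not overlap for either. The tested genes within 5 Mb of Smc1a on chromosome X had a median log2 fold change of 0.54 (43 genes), of the same sign and nearly the same size, while that of the other tested genes on the chromosome was -0.074. Around Smc3 on chromosome 19 the 5 Mb median was -0.055 (30 genes). The part of the neighborhood in these differences was not tested.

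Atr, the sister kinase of ATM that answers to single-stranded DNA, also fell. It had 72.4, 77.3 and 69.0 CPM in the controls and 48.1, 54.7 and 57.2 CPM in the knockout tumors (log2 fold change -0.45 ± 0.087 (SE), edgeR adjusted p = 0.0424). Rad51d, a homologous recombination gene, rose from 27.6, 27.4 and 28.4 CPM to 36.9, 36.1 and 34.4 CPM (log2 fold change 0.36 ± 0.069 (SE), edgeR adjusted p = 0.0414). For both, every knockout tumor lay outside the range of the controls. The medians within 5 Mb were -0.15 for Atr (50 genes) and 0.13 for Rad51d (142 genes). The third kinase of the family, Prkdc (DNA-PKcs), which works with Ku, was not called (0.12 ± 0.098 (SE), edgeR adjusted p = 0.542). Next by p-value came Parp2, a second poly(ADP-ribose) polymerase (-0.40, edgeR adjusted p = 0.0526), and Mad2l2, the shieldin subunit REV7 that acts with 53BP1 (0.41, edgeR adjusted p = 0.0635), neither past the threshold. DESeq2 called both. Over 15 alternatives the adjusted p of Parp2 ran from 0.00436 to 0.207, and the gene was called in 2. That of Mad2l2 ran from 0.0157 to 0.245, and the gene was called in 1. The tested genes within 5 Mb of Parp2 had a median log2 fold change of -0.33 (115 genes), of the same sign and nearly the same size. The median of the other tested genes on its chromosome, 14, was -0.35. Around Mad2l2 the 5 Mb median was -0.0041 (93 genes). The part of the neighborhood in these differences was not tested.

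None of these 4 calls held in all alternatives, though the folds stayed close. Over 15 alternatives the adjusted p ran from 1.319e-08 to 0.131 for Smc1a, from 0.000373 to 0.148 for Atr, from 0.00164 to 0.175 for Rad51d and from 5.988e-05 to 0.162 for Smc3. When any 1 tumor was left out, Rad51d and Smc3 missed the threshold, Atr kept it only without vector control tumor 1 (edgeR adjusted p = 0.0466), and Smc1a only without vector control tumor 1 (0.0215) or ATM knockout tumor 3 (0.0489). Fewer tumors entered those fits. Over the same alternatives the log2 fold changes ran from 0.55 to 0.68 for Smc1a, -0.50 to -0.38 for Atr, 0.34 to 0.41 for Rad51d and -0.45 to -0.33 for Smc3.

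**Figure D5:**
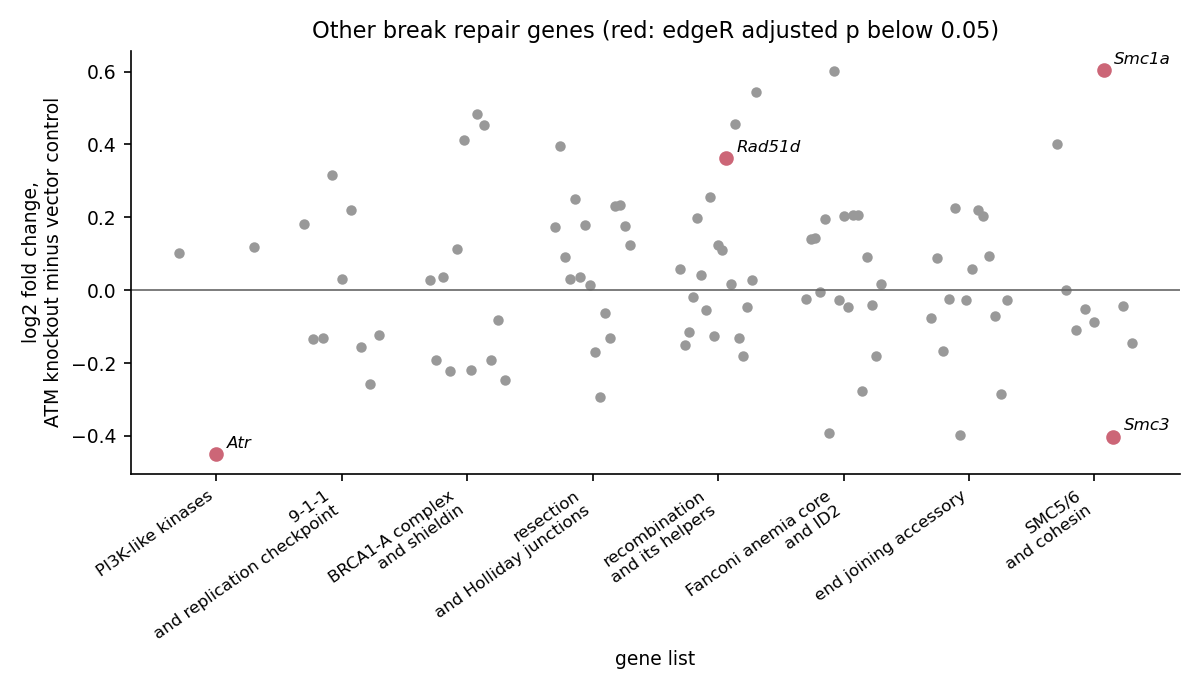
Log2 fold change (ATM knockout minus vector control) of the 99 further break repair genes tested, by list and in alphabetical order within each list. The 4 genes with an edgeR adjusted p below 0.05 are in red: Smc1a (0.60) and Rad51d (0.36) above 0, Atr (-0.45) and Smc3 (-0.40) below.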

How the data were processed

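The authors deposited raw counts per gene, 1 file per tumor. Per the submitters' processing notes, the tools were HTSeq, STAR, SAMtools, Trim Galore and cutadapt (no version or role), and GRCm38 and mm10 the builds. In the sources used here the strand setting is not given. All 55536 identifiers matched GENCODE M21, which gave coordinates, exon lengths and overlaps. Rows naming no gene stayed out of library sizes: 16.7% to 18.2% of listed reads matched no counted feature and 1.21% to 1.38% were ambiguous.

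Genes were filtered with filterByExpr (minimum count 10, minimum total 15), scaled by TMM (factors 0.959 to 1.03) and tested with edgeR 4.0.16 in R 4.3.3, by its robust quasi-likelihood F test, genotype as the only term and Benjamini-Hochberg adjustment over all 15696 genes. Intervals are at 95% from the same fit. DESeq2 1.42.0 and limma 3.58.1 (voom) were alternatives, with other scalings, filters, thresholds, a replicate block and each tumor left out. On simulated counts for this comparison (15695 genes) edgeR recovered 48.5% of 2-fold and 84.4% of 4-fold changes, none in the wrong direction, and 17 of its 146 calls were unchanged genes. Libraries of a group differed by more than counting error (chi-square over its degrees of freedom 19.1 to 72.3), and each is 1 sample.

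The 36 genes and all lists were chosen with earlier results of these data known. Named were the 36; Atm, Atr and Prkdc; of the other break repair genes, those called and the 6 with the smallest p; of the proliferation genes, those called and the 3 with the smallest p. The symbol of Clspn was misspelled in the list and corrected after results were seen, and 4 older symbols were matched through RefSeq synonyms. Markers of cell types were named by list and defining gene, and Dct as the marker that was called. Overlapping genes and those named beside Brca1 were added after values were seen.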

Additional observations from a re-analysis of the deposited data

How the results depend on the processing

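Of 17 alternatives, all kept the sign of 26 of the 36 genes, and 10 changed sign under at least 1. With library size alone Palb2 was at 0.0399, Rpa1 at 0.0082, Parp1 at 0.0441, Bard1 at 0.0007 and Xrcc2 at 0.0065 (log2 fold change); with at least 1 CPM in 3 libraries Palb2 was at 0.0213 and Parp1 at 0.0257; with no filter they were at 0.0088 and 0.0127. Exo1 was at -0.0051 with limma-voom. With 1 tumor left out, log2 fold changes ran from -0.2503 to 0.0372 for Mdc1, -0.1096 to 0.0109 for Rnf168, -0.1047 to 0.0654 for Palb2, -0.1374 to 0.1983 for Exo1, -0.0308 to 0.1112 for Fancd2, -0.0895 to 0.0362 for Rpa1, -0.0926 to 0.0953 for Parp1, -0.1601 to 0.1117 for Bard1, -0.1124 to 0.0764 for Xrcc2, -0.0774 to 0.1549 for Rif1 and -0.0333 to 0.1951 for Atm. Calls among the 36 then ran from 0 to 2 higher (2 without vector control tumor 1) with 0 lower, among the other break repair genes from 0 to 2 in each direction, and among all genes from 0 to 587 higher and 2 to 622 lower, most without vector control tumor 1 and fewest without ATM knockout tumor 1. DESeq2 called 1 of the 36 as higher, 7 other break repair genes as higher and 3 as lower, and 920 higher and 1150 lower in all. Library size alone called 1 of the 36 as higher, and 58.6% of its 860 calls were higher, against 44.6% of 778. At an adjusted p below 0.10, 1 of the 36, 5 other break repair genes and 783 genes in all were higher and 916 lower; below 0.01, 0 other break repair genes were called, with 26 higher and 22 lower in all. The labels do not say whether equal numbers pair the tumors. Deviations from the group means correlated at 0.0437, -0.272 and -0.42 between same-numbered tumors, and at -0.234 to 0.439 between the others. With 3 tumors per group such deviations are not independent, and host tissue was uneven. They cannot show whether the tumors were paired. With the number as a replicate block 0 genes were called in either direction, among the 36, the other break repair genes and all genes, and Exo1 was at -0.0027. The block leaves fewer degrees of freedom; other causes were not tested. In simulated counts, 48.5% of 2-fold changes were recovered. The changed genes were drawn at random from those expressed, so this share does not describe the 36. Their median standard error was 0.12 on the log2 scale, against 0.15 for all genes tested. Changes of less than 2-fold in 1 gene could still be missed at this number of tumors.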
